A study of Drosophila melanogaster with 35 samples.

Results

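Transposable element insertions are copies of mobile DNA at a fixed place in the genome, and the head RNA of *Drosophila melanogaster* was counted over each annotated copy as well as over each gene. The count table held 23882 rows, of which 17830 were genes and 5571 were insertions (5416 with an FBti identifier and 155 with an RR identifier). The 2608 insertion rows with 20 or more counts summed over the 23 libraries are described here. Another 1732 insertions had 1 to 19 counts and 1231 had none. The last 481 rows that are not genes were transcript rows with 0 counts in every library. The rows were chosen by their summed counts, the same values that are compared below, and 245 of the 2608 would have fallen under 20 counts without 1 of the groups. At the border, 44 rows had 18 or 19 counts and 53 had 20 or 21.

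The libraries came from heads of adult flies kept at 25 °C and collected 1 to 5 days after eclosion, and were made with a stranded mRNA kit. KDM5 is a histone demethylase that acts on methylated lysine 4 of histone H3. The groups were WT KDM5 (n = 5), strains labelled with the single amino acid changes A224T, D234G, L854F, R873W and Y874C (n = 3 each), and JmjC (n = 3), named for the catalytic domain. The labels give neither how each change was brought into the flies, nor their sex, nor the background of each strain, nor whether replicates came from separate crosses, and the p-values rest on the spread from library to library, which may be technical.

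Retrotransposons move through an RNA copy, and in LTR families such as copia, roo and 412 this RNA starts in a long terminal repeat. LINE-like families lack such repeats, and HeT-A and TART-A are LINE-like elements that form the ends of fly chromosomes. DNA transposons such as hobo (rows named H) and Bari1 move by excision, and INE-1 is an old, short Helitron-type element present in very many copies. Small RNAs of the piRNA pathway silence these elements in the germ line and the siRNA pathway does so in somatic tissue. The copies that a strain carries differ between fly stocks, so in RNA counts the presence of a copy and the level of its transcript cannot be told apart. Copies of a family can be nearly identical. The sources used here do not say how reads matching several copies were counted, which leaves values of single copies uncertain, and sums over a family less so. In bulk heads, fewer cells of a type and less RNA per cell cannot be told apart either. Positions and sequences of the insertions were not used here.

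The 23 libraries fell into 2 sets. Set 1 held WT 1 and 2 with D234G, R873W and Y874C, and set 2 held WT 3 to 5 with A224T, L854F and JmjC. roX2, a noncoding RNA that males use in dosage compensation of the X chromosome, was at 19.5 to 41.6 counts per 1000000 gene counts (CPM) in set 1 and at 0.151 to 0.999 CPM in set 2, so strains were compared with WT of their own set only. Gene counts were 16787755 to 32730301 per library except in D234G 1 (3774003) and D234G 2 (4921958). Insertion rows with a count numbered 1576 in D234G 1, 1707 in D234G 2 and 2202 to 2434 in the others. The photoreceptor gene ninaE, the main rhodopsin, was at 29616 to 29651 CPM in WT 1 and 2, above 17857 to 18467 CPM in D234G, 18800 to 21699 CPM in R873W and 22225 to 23815 CPM in Y874C. In set 2 it was at 21096 to 23080 CPM in WT 3 to 5, 18465 to 21189 CPM in the A224T libraries, 20143 to 21475 CPM in those of L854F and 22652 to 24422 CPM in JmjC. Male reproductive transcripts were present in D234G 1 and 3 (betaTub85D, a testis tubulin, at 97.0 and 129.8 CPM) and far lower in D234G 2 (0.203 CPM), and the summed level of the 29 testis and accessory gland markers found was 7.92 to 1102 CPM in D234G, 22.7 to 544 CPM in R873W and 15.4 CPM or less in all other libraries. The oocyte RNA osk was at 4.52 CPM in WT 2, 1.83 CPM in D234G 2 and at most 0.304 CPM elsewhere. Kdm5 itself was at 421 to 576 CPM, and counts over the gene cannot check which amino acid a strain carries. The part of photoreceptor, testis, ovary and depth differences in the insertion values was not tested, except where values without those libraries are given.

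The insertion rows took 0.761 to 1.52% of all counts of a library. LTR families held 74.4% of their summed CPM, LINE-like families 13.2%, INE-1 6.51% and other DNA transposons 3.81%. The 32 copia rows gave the most counts, with 24.2 to 51.3% of the insertion counts of a library, and the 10 rows with the highest mean, all copia, held 24.4%. Of the 2608 rows, 958 had a mean of 1 CPM or more and 1232 had a count in all 23 libraries. Among the 124 families, others with high summed means were INE-1, opus, roo, Transpac, flea and TART-A, a ranking by counts and not per length.

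In set 1 the share was highest in R873W and lowest in D234G. The shares were 0.878 and 0.909% in WT 1 and 2, 0.762, 0.773 and 0.761% in D234G, 1.52, 1.35 and 1.31% in R873W and 1.01, 0.772 and 0.804% in Y874C. The R873W libraries did not overlap with any other group of set 1, and the 4 groups differed (two-sided exact permutation over all 92400 regroupings, p = 0.00351). In set 2 the shares were 1.24, 1.34 and 1.41% in WT 3 to 5, 1.36, 1.12 and 1.37% in A224T, 1.12, 1.16 and 1.25% in L854F and 1.26, 1.13 and 1.21% in JmjC. These 4 groups were not distinguished by the same exact permutation test (369600 regroupings, p = 0.217). Without A224T 2, the low library of its group, p was 0.0423 by the exact permutation test.

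**Figure D1:**
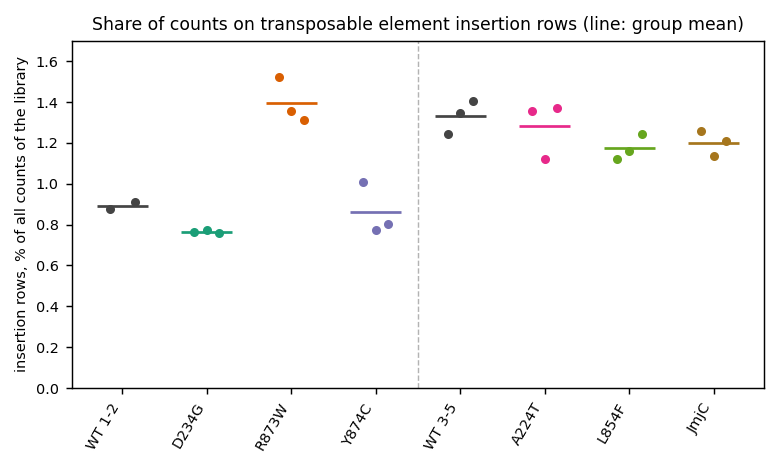
Share of all counts of a library on the 2608 insertion rows, in percent, by group; points are libraries, lines are group means and the dashed line parts the library sets. R873W sits at 1.31 to 1.52%, above the 0.761 to 1.01% of the other groups of set 1, while the groups of set 2 overlap.

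Row by row, calls were made with edgeR's quasi-likelihood test over all rows, genes included, where the Benjamini-Hochberg adjusted p was under 0.05. In D234G 63 of 2603 insertion rows rose and 154 fell (8.34%). Of all rows tested 17.6% were called there, 11.4% higher and 6.18% lower. In R873W 258 rose and 95 fell (13.6%, against 20.2% of all rows), and in Y874C 73 rose and 106 fell (6.88%, against 6.14%, of which 3.07% higher and 3.07% lower). R873W was the strain of set 1 in which most of the called insertions rose, while all tested rows there were called higher in 6.8% and lower in 13.4%. The median log2 fold of the insertion rows in R873W was 0.35, against 0.00 over all rows. In set 2, of 2598 tested rows, 227 rose and 164 fell in A224T (15.05%, against 19.6%, of which 14.7% higher and 4.95% lower). In L854F 189 rose and 135 fell (12.5%, against 11.3%, of which 7.26% higher and 4.05% lower), and in JmjC 279 rose and 164 fell (17.1%, against 26.8%, of which 21% higher and 5.81% lower). Shares of called insertion rows were thus below those of all rows in 4 of the 6 comparisons, and slightly above in Y874C and L854F. The insertion rows had a median of 209 counts summed over the 23 libraries, and the part of count level in these shares was not tested. Among the called rows 8 in D234G, 19 in R873W, 10 in Y874C, 2 in A224T, 1 in L854F and 14 in JmjC reached 20 counts only through the strain or through WT of its set, so that they had to differ.

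The split into higher and lower calls depends on the scaling, and the counts on the control libraries. TMM factors shifted the median log2 fold of all rows by 0.11 in R873W, -0.11 in A224T and -0.16 in JmjC, and turned the split into 178 higher and 222 lower in A224T and 217 higher and 252 lower in JmjC. With WT 1 left out, 73 rows were called in D234G, 160 in R873W and 81 in Y874C, and with WT 2 left out 68, 144 and 79. Without D234G 1 and 3, the libraries with testis transcripts, 74 rows were called in D234G, and without D234G 1 and 2, the shallow libraries, 167 were. Each of these fits leaves 1 D234G library, assumed to vary like the other groups, so testis transcripts, depth and the number of libraries cannot be told apart in these counts. In a test among all 4 groups of a set, 646 rows (24.8%) differed in set 1 and 649 (25.0%) in set 2, where 42.8 and 36.1% of all rows did. The 321 rows that differed in both sets were 49.7% of the calls of set 1 and 49.5% of those of set 2, and the sets share no library. This overlap was not counted over all rows, so whether it is particular to insertions was not tested.

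**Figure D2:**
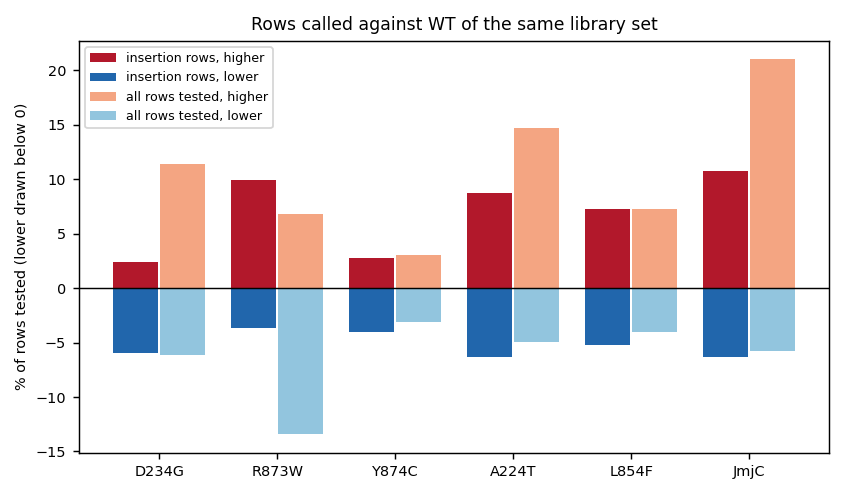
Percent of tested rows called higher (above 0) or lower (below 0) than WT of the same library set, for insertion rows and for all rows tested, in each of 6 strains. In R873W more insertion rows rose (258) than fell (95), while among all rows more were called lower (13.4%) than higher (6.8%).

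Among LTR families, copia RNA rose in R873W and in no other strain did more than 1 copia row rise. Its summed level was 2378 to 2973 CPM in WT 1 and 2, 1885 to 2005 CPM in D234G, 5948 to 7053 CPM in R873W and 2466 to 3389 CPM in Y874C. Every R873W library lay above both WT libraries, and every D234G library below them. In R873W 29 of 32 copia rows rose, and at least 28 did without any single library. The fold differed between copies of 1 CPM or more, with log2 values of 0.15 to 2.14 and a median of 1.36. In D234G 8 of 32 copia rows fell, or 2 without WT 2. In Y874C 1 rose and 3 fell, and without WT 2 no more than 1 of these falls was called.

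WT of set 2 carried more copia RNA than WT of set 1, at 6445 to 7157 CPM, values given side by side with no test because the sets differ. Here the strains were at or below WT, with 4753 to 6680 CPM in the A224T libraries, 4953 to 5301 CPM in those of L854F and 5043 to 6176 CPM in JmjC. The fall was broadest in L854F, where 18 of 32 rows passed, or 12 without L854F 1. In A224T 10 fell (16 with TMM) and in JmjC 7 fell (21 with TMM), and without WT 4, WT 5 or A224T 2 the A224T count was 6 and without JmjC 3 the JmjC count was 4. The copy with the most counts, copia{}RR48399, had CPM of 132 and 171 in WT 1 and 2, 117, 98.1 and 99.2 in D234G, 388, 374 and 346 in R873W and 197, 127 and 139 in Y874C. It rose in R873W (log2 fold 1.29 ± 0.18 SE, edgeR adjusted p = 0.000749). In set 2 its CPM were 665, 715 and 738 in WT 3 to 5, 659, 471 and 662 in A224T, 498, 513 and 532 in L854F and 654, 559 and 534 in JmjC, and the fall in L854F (log2 fold -0.46 ± 0.11 SE, edgeR adjusted p = 0.0148) was lost without WT 4 or L854F 1 or L854F 2 (highest edgeR adjusted p = 0.0575).

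Single copia copies did not all follow the family. copia{}1467 had CPM of 183 and 225 in WT 1 and 2, 75.2, 81.7 and 78 in D234G, 328, 293 and 276 in R873W and 151, 100.5 and 101 in Y874C, and in set 2 81.3, 81.4 and 95.4 in WT 3 to 5, 56.6, 38.6 and 57 in A224T, 27.2, 32.4 and 24.3 in L854F and 24.6, 21.8 and 20.4 in JmjC. Among the 12 copia rows followed by name, it alone was lower in WT 3 to 5 than in WT 1 and 2. It fell in D234G (log2 fold -1.38 ± 0.17 SE, edgeR adjusted p = 0.000554), A224T (log2 fold -0.76 ± 0.14 SE, edgeR adjusted p = 0.00105), L854F (log2 fold -1.62 ± 0.14 SE, edgeR adjusted p = 2e-06) and JmjC (log2 fold -1.95 ± 0.14 SE, edgeR adjusted p = 1.38e-07), and these 4 calls held without each library. Its fall in Y874C was lost without WT 2 or Y874C 2 or Y874C 3 (highest edgeR adjusted p = 0.182), and its rise in R873W without WT 1 or WT 2 or R873W 1 or R873W 2 (highest edgeR adjusted p = 0.253). copia{}387, the row with the third highest mean, had CPM of 162 and 205.4 in WT 1 and 2 and 236, 192 and 184 in R873W, and its difference did not pass (log2 fold 0.15 ± 0.12 SE, edgeR adjusted p = 0.405). copia{}1016 had the largest rise in R873W among the 10 rows with the highest mean (log2 fold 2.04 ± 0.18 SE, edgeR adjusted p = 4.56e-05), from 62.9 and 74 CPM in WT 1 and 2 to 319, 279 and 248 CPM.

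The rows whose levels most resembled those of copia{}RR48399 over the 23 libraries were copia{}RR48347, copia{}1466 and copia{}1684, with Spearman's rho of 0.993, 0.990 and 0.989. Because copies of copia are alike in sequence and share libraries, this is a description only. Across the 30 copia rows of 1 CPM or more the median rho between copies, over the libraries of both sets, was -0.19. Against WT of its set the log2 fold was above 0 in 30 of these rows in R873W and 23 in Y874C. It was below 0 in 29 in D234G, 27 in A224T, 30 in L854F and 28 in JmjC. A rho that spans both sets cannot tell differences between the sets from those between strains. The median rho by the same measure was higher in mdg3 (0.80 over 10 rows), H (0.75 over 11 rows) and 412 (0.70 over 24 rows). In Burdock it was -0.36 over 15 rows.

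The LTR family 412 was higher than WT in strains of both sets. Summed levels were 83 to 83.6 CPM in WT 1 and 2, 78.8 to 90.7 CPM in D234G, 193 to 233 CPM in R873W and 244 to 289 CPM in Y874C. In set 2 they were 99.2 to 113 CPM in WT 3 to 5, 126 to 163 CPM in the A224T libraries, 181 to 237 CPM in those of L854F and 140.2 to 153 CPM in JmjC. Outside D234G no strain library overlapped with WT of its set. Of 27 rows tested, 2 rose in D234G, 22 in R873W, 24 in Y874C, 12 in A224T, 22 in L854F and 14 in JmjC. Without WT 2 the counts in R873W and Y874C were 12 and 13, without A224T 1 that in A224T was 8, and with TMM factors 9 rose in A224T and 10 in JmjC. The row 412{}2 had CPM of 4.63 and 3.78 in WT 1 and 2, 2.12, 3.05 and 3.86 in D234G, 9.47, 8.07 and 9.45 in R873W and 14.4, 10.8 and 12.1 in Y874C, and in set 2 0.961, 0.948 and 1.12 in WT 3 to 5, 3.16, 2.67 and 2.31 in A224T, 5.57, 6.76 and 8.72 in L854F and 4.38, 3.28 and 3.46 in JmjC. It rose by most in L854F (log2 fold 2.79 ± 0.22 SE, edgeR adjusted p = 4.33e-07), followed by JmjC (log2 fold 1.88 ± 0.23 SE, edgeR adjusted p = 2.28e-05) and Y874C (log2 fold 1.57 ± 0.23 SE, edgeR adjusted p = 0.00248), where the call was lost without WT 2 (highest edgeR adjusted p = 0.0527).

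Rows of mdg3, an LTR family, rose in R873W and fell in D234G. The summed level was 63.9 to 73.4 CPM in WT 1 and 2, 30.3 to 34.5 CPM in D234G, 269 to 372 CPM in R873W and 45.5 to 53.3 CPM in Y874C. In set 2 it was 24.5 to 30.6 CPM in WT 3 to 5, 44.7 to 50.5 CPM in the A224T libraries, 60.2 to 99.96 CPM in those of L854F and 41.9 to 55 CPM in JmjC. The groups of set 1 did not overlap, and every strain of set 2 was above WT. Of 13 rows, 11 rose in R873W (9 without WT 2) and 11 in L854F (10 without WT 5), 8 rose in A224T (4 without WT 3 or A224T 1) and 7 in JmjC (3 without JmjC 3, and 3 with TMM). In D234G 8 fell, or 1 without WT 1, and in Y874C 2 fell, neither of them without WT 1 or without WT 2.

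HMS-Beagle parted the strains of set 1 into those near WT and those far below. Summed levels were 306 to 346 CPM in WT 1 and 2 and 319 to 370 CPM in D234G, against 45.2 to 56.3 CPM in R873W and 37.9 to 44.3 CPM in Y874C. In set 2 they were 124 to 159 CPM in WT 3 to 5, 110.5 to 166 CPM in the A224T libraries, 314 to 345 CPM in those of L854F and 144 to 167 CPM in JmjC. The family fell in R873W and Y874C and rose in L854F. Of 11 rows 10 fell in R873W, with a median log2 fold of -2.80 over the 10 rows of 1 CPM or more, and 10 fell in Y874C with a median of -3.10. In L854F 9 rose with a median of 1.21. No count was lower without any single library.

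Stalker2, an LTR family, was lower than WT in all 3 strains of set 2. The rows of the family summed to 267 to 294 CPM in WT 3 to 5, 26.8 to 30.4 CPM in the A224T libraries, 44 to 65.1 CPM in those of L854F and 59.6 to 67.8 CPM in JmjC. In each of these strains 7 of 10 rows fell, and at least 6 did without any single library, while 2 rows rose in L854F and 1 in JmjC. In set 1 it was 67.6 to 76.9 CPM in WT 1 and 2, 154 to 165 CPM in D234G, 141 to 159 CPM in R873W and 87.6 to 124 CPM in Y874C. Here 5 rows rose in D234G, 5 in R873W (4 without WT 1) and 2 in Y874C (both calls lost without WT 1 or WT 2). The row with the most counts, Stalker2{}1001, had CPM of 14.4 and 15.7 in WT 1 and 2, 32.9, 41.5 and 36.3 in D234G, 42.4, 44.6 and 36.2 in R873W and 36.9, 24.5 and 24.3 in Y874C. In set 2 its CPM were 111, 116 and 122 in WT 3 to 5, 9.24, 8.63 and 10.8 in A224T, 21.2, 15.2 and 24.5 in L854F and 23.4, 22.9 and 26.1 in JmjC. WT 3 to 5 stood apart from the other 20 libraries, above every strain and above WT 1 and 2. The row fell in A224T (log2 fold -3.61 ± 0.14 SE, edgeR adjusted p = 7.62e-11), L854F (log2 fold -2.52 ± 0.13 SE, edgeR adjusted p = 4.73e-09) and JmjC (log2 fold -2.27 ± 0.13 SE, edgeR adjusted p = 1.14e-08).

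**Figure D3:**
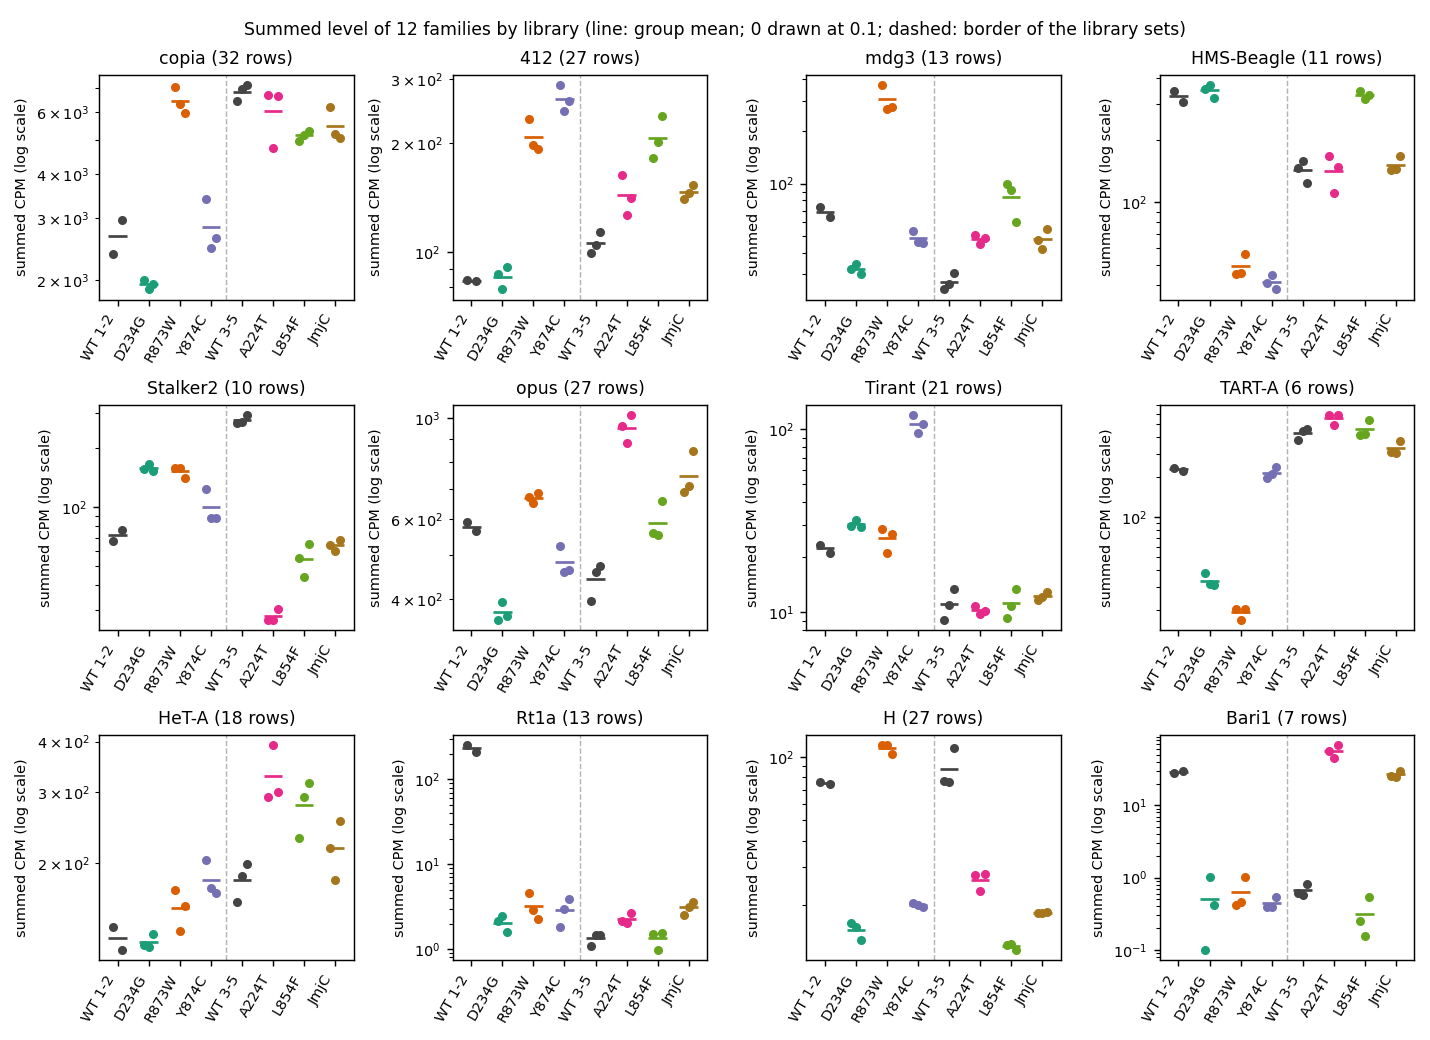
Summed CPM of the rows of 12 families on a log axis, by group; points are libraries, lines are group means and the dashed line parts the library sets. WT 1 and 2 lie far above WT 3 to 5 in Rt1a (209.8 to 253.6 against 1.07 to 1.48 CPM) and Bari1 (28.4 to 30.0 against 0.579 to 0.824 CPM), and H is low in every strain but R873W.

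Tirant, an LTR family of the gypsy group, was highest in Y874C. The summed level of the family was 95.8 to 119.8 CPM in Y874C, against 21.2 to 23.4 CPM in WT 1 and 2, 29.1 to 32.1 CPM in D234G and 21.1 to 28.4 CPM in R873W, and 9.10 to 13.4 CPM over the libraries of set 2. In Y874C 17 of 21 rows rose, or 7 without WT 2, and Y874C was also above the other strains of its set, with 16 rows higher than in D234G and 18 higher than in R873W. Tirant{}797 had CPM of 0.104 and 0.0525 in WT 1 and 2, 0.795, 0 and 0.824 in D234G, 0.419, 0.457 and 0.482 in R873W and 4.29, 3.06 and 3.72 in Y874C. The Y874C libraries were the highest (ratio to WT 46.6, 95% counting interval 15.8 to 227, edgeR adjusted p = 0.00313), and the call was lost without WT 2 (highest edgeR adjusted p = 0.0656).

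opus rose in the strains of set 2 and fell in D234G. Together its rows reached 395 to 473 CPM in WT 3 to 5, 881 to 1016 CPM in the A224T libraries, 554 to 656 CPM in those of L854F and 688 to 845 CPM in JmjC. In A224T 16 of 27 rows rose (13 with TMM), in JmjC 15 and in L854F 9, or 5 without WT 3 or L854F 3. In set 1 the level was 564 to 590.1 CPM in WT 1 and 2 and 361 to 395 CPM in D234G, where 18 rows fell, or 6 without WT 1. The opus sum was also below WT in Y874C, at 460 to 523 CPM, and above WT in R873W, at 650 to 683 CPM. roo, with 115 rows, rose in D234G, from 459 to 481 CPM to 699.8 to 764 CPM, with 21 of 112 tested rows passing, but 1 without WT 2. In the strains of set 2 rows of roo went both ways, with 31 higher and 33 lower in A224T, 28 and 20 in L854F and 19 and 15 in JmjC (10 and 30 with TMM), and no direction is given for the family. Single libraries decided many of these calls: without A224T 3 the rises in A224T were 18, without L854F 3 those in L854F were 15 and without JmjC 3 those in JmjC were 8, and without WT 5 the falls in L854F were 9 and without JmjC 2 those in JmjC were 5.

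Other LTR families moved in fewer strains. 3S18 fell in 9 of 14 rows in A224T, 10 in L854F, 7 in Y874C, 6 in D234G (1 without WT 1 or WT 2), 5 in JmjC (3 without WT 5 or JmjC 2) and 1 in R873W. 3S18{}853 was the only row that fell in all 6 strains, and its call in R873W was lost without each single library and with TMM factors. Transpac fell in set 2, from 616 to 656 CPM in WT 3 to 5 to 298 to 344 CPM in the A224T libraries, 379 to 409 CPM in those of L854F and 271 to 312 CPM in JmjC, with 8, 7 and 9 of 10 rows called and at least 7 in each without any single library. In R873W 8 Transpac rows rose, calls that were all lost without WT 2. mdg1 rose in R873W (17 of 22 rows, 5 without WT 2) and JmjC (11 rows). blood rose in R873W (16 of 25 rows, 3 without WT 2) and L854F (11 rows). The family 1731 was highest in JmjC, at 55 to 66.5 CPM against 5.09 to 7.42 CPM in WT 3 to 5, where 5 of 8 rows rose.

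**Figure D4:**
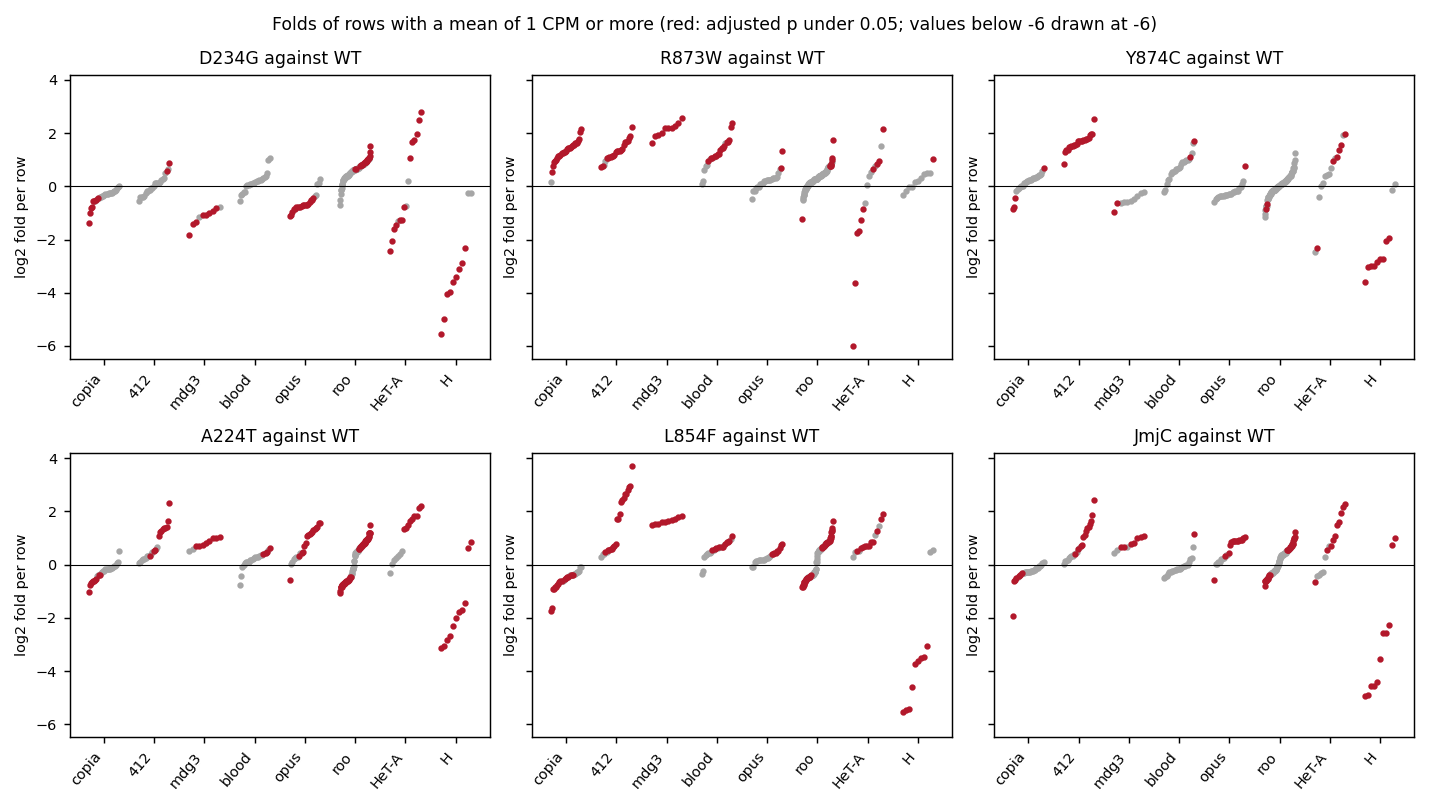
Log2 fold of each row with a mean of 1 CPM or more in 8 families, by strain against WT of its set; red points passed an adjusted p under 0.05, and values below -6 are drawn at -6. In R873W 29 copia rows rose, and in D234G, Y874C, A224T, L854F and JmjC most H rows fell. Rows of roo lie on both sides of 0 in every strain, and those of HeT-A in every strain but L854F, where 16 of 16 are above 0.

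Among single LTR copies, springer{}1464 and micropia{}RR48374 were highest in D234G within set 1. springer{}1464 had CPM of 8.58 and 7.51 in WT 1 and 2, 63.1, 47.1 and 53 in D234G, 16.8, 14.9 and 15 in R873W and 15.6, 16.1 and 14.4 in Y874C. The D234G libraries were the highest of all 23 (log2 fold 2.75 ± 0.14 SE, edgeR adjusted p = 1.67e-06). In set 2 its CPM were 12.8, 15 and 15.9 in WT 3 to 5, 11.2, 9.75 and 8.60 in A224T, 11.6, 12.6 and 14.6 in L854F and 11.3, 11.5 and 13.1 in JmjC. micropia{}RR48374 had CPM of 1.61 and 1.89 in WT 1 and 2, 10.1, 14.2 and 15.3 in D234G, 3.35, 3.08 and 3.42 in R873W and 3.30, 3.12 and 3.49 in Y874C and rose in D234G (log2 fold 2.92 ± 0.24 SE, edgeR adjusted p = 6.38e-05). In set 2 it was at 7.46, 12.5 and 19.96 in WT 3 to 5, 1.73, 3.01 and 2.56 in A224T, 2.58, 2.79 and 4.85 in L854F and 5.05, 6.85 and 5.42 in JmjC, and fell in A224T (log2 fold -2.45 ± 0.32 SE, edgeR adjusted p = 5.69e-05), L854F (log2 fold -1.96 ± 0.31 SE, edgeR adjusted p = 0.000488) and JmjC (log2 fold -1.20 ± 0.29 SE, edgeR adjusted p = 0.00634). These 5 calls held without each library.

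The telomeric element TART-A was low in D234G and R873W. Its summed level was 224.3 to 236 CPM in WT 1 and 2 and 198 to 237 CPM in Y874C, against 30.9 to 38.2 CPM in D234G and 17 to 20.6 CPM in R873W. In set 2 it was 382 to 463 CPM in WT 3 to 5, 489.5 to 587 CPM in the A224T libraries, 412.2 to 537 CPM in those of L854F and 304 to 376 CPM in JmjC. TART-A{}6259 and TART-A{}6261 carried most of it. TART-A{}6259 had CPM of 127 and 124 in WT 1 and 2, 19.1, 14 and 15.8 in D234G, 10.3, 9.61 and 10.8 in R873W and 118, 121 and 145 in Y874C, and fell in D234G (log2 fold -2.96 ± 0.12 SE, edgeR adjusted p = 4.3e-07) and R873W (log2 fold -3.61 ± 0.12 SE, edgeR adjusted p = 4.96e-08). TART-A{}6261 had CPM of 102 and 95.2 in WT 1 and 2, 15.6, 13.6 and 11.8 in D234G, 5.91, 4.66 and 6.07 in R873W and 76.8, 85.1 and 90.1 in Y874C, and fell in D234G (log2 fold -2.88 ± 0.13 SE, edgeR adjusted p = 7.02e-07) and R873W (log2 fold -4.15 ± 0.13 SE, edgeR adjusted p = 4.96e-08). The D234G and R873W libraries lay far under all others in both rows, and these calls held without each library. In set 2 TART-A{}6259 had CPM of 222, 261 and 273 in WT 3 to 5, 360.5, 296 and 356 in A224T, 250.2, 259 and 321 in L854F and 180.2, 179 and 219 in JmjC. The higher level in A224T (log2 fold 0.42 ± 0.12 SE, edgeR adjusted p = 0.0176) was lost without WT 3 or A224T 1 or A224T 3 (highest edgeR adjusted p = 0.0738) and with TMM, and the lower level in JmjC (log2 fold -0.39 ± 0.12 SE, edgeR adjusted p = 0.0207) was lost without WT 4 or WT 5 or JmjC 1 or JmjC 2 (highest edgeR adjusted p = 0.0825).

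HeT-A, the other telomeric element, did not follow TART-A. The summed level was 122 to 138 CPM in WT 1 and 2, 124 to 133 CPM in D234G, 135 to 172 CPM in R873W and 168 to 203 CPM in Y874C. In set 2 it was 159.6 to 198 CPM in WT 3 to 5, 292 to 392 CPM in the A224T libraries, 230.4 to 316 CPM in those of L854F and 181 to 254 CPM in JmjC. In set 2 only rises were called in A224T (10 of 18 rows) and L854F (11, or 6 without L854F 3), and in JmjC 9 rose and 1 fell. In D234G 6 rose and 7 fell and in R873W 4 rose and 6 fell, so that single copies changed in opposite directions while the sum of D234G overlapped with that of WT. Without WT 2 the rises were 2 in D234G and 2 in R873W, and without WT 1 the falls in D234G were 4. HeT-A{}4617 had CPM of 6.76 and 6.73 in WT 1 and 2, 0.795, 0.203 and 2.27 in D234G, 0 in every R873W library and 1.49, 1.31 and 0.843 in Y874C. It fell in R873W (at least 164-fold lower, edgeR adjusted p = 0.00039), a call that held without each library. HeT-A{}6277 had CPM of 0.416 and 0.525 in WT 1 and 2, 4.77, 2.44 and 2.83 in D234G, 0.209, 0.374 and 0.322 in R873W and 2.13, 1.59 and 1.84 in Y874C, and rose in D234G (log2 fold 2.79 ± 0.48 SE, edgeR adjusted p = 0.00458), a call lost without WT 1 (highest edgeR adjusted p = 0.0593). In set 2 its CPM were 0.339, 0.474 and 0.353 in WT 3 to 5, 1.48, 1.36 and 1.36 in A224T, 1.11, 1.65 and 1.67 in L854F and 1.55, 1.41 and 2.32 in JmjC. It rose in A224T (log2 fold 1.82 ± 0.31 SE, edgeR adjusted p = 0.000637), L854F (log2 fold 1.90 ± 0.31 SE, edgeR adjusted p = 0.000657) and JmjC (log2 fold 2.15 ± 0.31 SE, edgeR adjusted p = 9.05e-05), without overlap and without any single library deciding the call.

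Among other LINE-like rows, Rt1a was seen at a high level in WT 1 and 2 and in no other library. The rows of the family summed to 209.8 to 254 CPM there, 1.60 to 2.44 CPM in D234G, 2.29 to 4.57 CPM in R873W, 1.81 to 3.87 CPM in Y874C and 0.980 to 3.57 CPM over set 2. Rt1a{}905 had CPM of 92.1 and 77.7 in WT 1 and 2, 0, 0.203 and 0.0515 in D234G, 0.209, 0.333 and 0.121 in R873W and 0.106, 0.214 and 0.383 in Y874C. It fell in D234G (ratio to WT 0.000838, 95% counting interval 0.000101 to 0.00303, edgeR adjusted p = 7.02e-07), R873W (log2 fold -8.55 ± 0.35 SE, edgeR adjusted p = 1.77e-07) and Y874C (log2 fold -8.48 ± 0.34 SE, edgeR adjusted p = 2.41e-07). In set 2 its CPM were 0, 0.158 and 0.0589 in WT 3 to 5, 0.0988, 0 and 0 in A224T, 0, 0.0516 and 0.0980 in L854F and 0.111, 0 and 0.238 in JmjC. WT 3 to 5 were thus as low as the strains. Helena{}1246 gave the same picture, with 3.79 and 3.89 CPM in WT 1 and 2, 0 in every other library of set 1 and at most 0.1455 CPM in set 2. With 147 counts in WT 1 and 2 and 8 in all other libraries, it reached 20 counts only through WT 1 and 2, so these values are a description with no test.

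hobo, a DNA transposon named H in the symbols, was low in 5 of the 6 strains. The summed level of the family was 74.2 to 76 CPM in WT 1 and 2 and 103 to 113 CPM in R873W, against 13.7 to 16.4 CPM in D234G and 19.5 to 20.4 CPM in Y874C. In set 2 it was 75.6 to 109.7 CPM in WT 3 to 5, 23.2 to 27.9 CPM in the A224T libraries, 12.2 to 13 CPM in those of L854F and 18.2 to 18.5 CPM in JmjC. The lowest WT library of each set lay above every library of these 5 strains. Of 27 rows, 15 fell in D234G (12 without WT 1), 15 in Y874C (10 without WT 1), 16 in A224T, 17 in L854F and 17 in JmjC. In R873W 1 row rose, and 18 rows were lower in Y874C than in R873W while 17 were higher in R873W than in D234G. In A224T and in JmjC 3 rows rose (2 with TMM and 1 without WT 3, and in A224T also 1 without WT 4, WT 5 or A224T 1), so that the fall did not cover every copy.

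H{}187 is an example of the rows that fell. Its CPM were 3.64 and 3.89 in WT 1 and 2, 0.265, 0 and 0.0515 in D234G, 4.61, 6.36 and 5.03 in R873W and 0.426, 0.550 and 0.383 in Y874C. In set 2 they were 10.1, 9.01 and 16.2 in WT 3 to 5, 1.73, 1.11 and 1.36 in A224T, 0.203, 0.361 and 0.245 in L854F and 0.277, 0.468 and 0.417 in JmjC. All WT and R873W libraries were at 3.64 CPM or more and all others at 1.73 CPM or less. The fall was seen in D234G (ratio to WT 0.0189, 95% counting interval 0.00227 to 0.0696, edgeR adjusted p = 0.00028), Y874C (log2 fold -3.03 ± 0.40 SE, edgeR adjusted p = 0.00121), A224T (log2 fold -3.07 ± 0.24 SE, edgeR adjusted p = 3.09e-07), L854F (log2 fold -5.42 ± 0.31 SE, edgeR adjusted p = 8.13e-09) and JmjC (log2 fold -4.91 ± 0.30 SE, edgeR adjusted p = 1.65e-08), and none of these calls rested on a single library. H{}1453 had 0 counts in the 3 L854F libraries against 1.53, 1.63 and 2.30 CPM in WT 3 to 5 (at least 35.9-fold lower, edgeR adjusted p = 1.83e-05). H{}355 had 0 counts in the 3 D234G libraries against 2.23 and 1.79 CPM in WT 1 and 2 (at least 18.9-fold lower, edgeR adjusted p = 0.00789), a call lost where D234G 2 was the only D234G library kept.

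Bari1, a DNA transposon of the mariner group, was at zero or near it in all libraries except those of WT 1 and 2, A224T and JmjC. Bari1{}282 had CPM of 15.8 and 16.3 in WT 1 and 2, 0 in every D234G library, 0.126, 0 and 0.0402 in R873W and 0.0709, 0.0306 and 0 in Y874C, and in set 2 0.170, 0 and 0.118 in WT 3 to 5, 20.9, 16.9 and 24.4 in A224T, 0.0506, 0 and 0 in L854F and 8.60, 9.60 and 11.1 in JmjC. It fell in D234G (at least 150.1-fold lower, edgeR adjusted p = 0.000512), R873W (log2 fold -8.04 ± 0.73 SE, edgeR adjusted p = 0.000176) and Y874C (ratio to WT 0.00215, 95% counting interval 0.000443 to 0.00632, edgeR adjusted p = 0.000259). It rose in A224T (log2 fold 7.70 ± 0.33 SE, edgeR adjusted p = 2.29e-10) and JmjC (log2 fold 6.61 ± 0.35 SE, edgeR adjusted p = 6.25e-09), and its L854F libraries overlapped with those of WT. WT of the sets were therefore unlike each other, and the direction against WT depended on which WT libraries stood in the set. Bari1{}1409 and Bari1{}Jheh[Bari1855] were likewise counted in WT 1 and 2, A224T and JmjC and at or near 0 elsewhere, and both were highest in A224T. Bari1{}1409 had 4.52 and 4.62 CPM in WT 1 and 2, 11.6, 8.53 and 14.6 CPM in A224T and 5.21, 4.51 and 5.84 CPM in JmjC, so that WT 1 and 2 overlapped with JmjC. Bari1{}Jheh[Bari1855] had 4.99 and 4.83 CPM in WT 1 and 2, 24.3, 19.2 and 27.9 CPM in A224T and 11.3, 10.4 and 12.8 CPM in JmjC, with WT 1 and 2 below JmjC, while in Bari1{}282 they lay above it. All 15 calls of these 3 rows held without each library. Bari1{}Cyp12a4[Bari1-1386] did not follow them in set 2. It had 2.13 and 2.575 CPM in WT 1 and 2, but 0.194 to 0.251 CPM in A224T and 0.117 to 0.298 CPM in JmjC. These values overlapped with the 0.170 to 0.412 CPM of WT 3 to 5.

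INE-1 held 827 rows, more than any other family. Together its rows reached 718 to 726 CPM in WT 1 and 2, 643 to 696 CPM in D234G, 975 to 1108 CPM in R873W and 595 to 825 CPM in Y874C, and in set 2 the groups overlapped at 626 to 795 CPM. Of 827 rows 43 rose and 10 fell in R873W, or 5 rose without WT 1 and 3 fell without WT 2. D234G had 3 higher and 14 lower, with 1 lower without WT 1 or WT 2, and Y874C 4 higher and 12 lower, with 2 lower without WT 2. In A224T 36 rose and 13 fell (28 and 21 with TMM, and 21 and 5 without WT 4), in L854F 9 rose and 2 fell, and in JmjC 46 rose and 21 fell (38 and 35 with TMM, and 12 fell without WT 5). Of all rows tested, 6.14% (Y874C) to 26.8% (JmjC) were called. Only 149 INE-1 rows had a mean of 1 CPM or more, and the part of low counts in the INE-1 calls was not tested. In R873W 126 of these 149 had a log2 fold above 0 and 23 below, with a median of 0.46. In the other strains 62 (D234G) to 87 (L854F) of them were above 0.

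A few INE-1 copies were counted in some groups and were at or near 0 in others. INE-1{}2165 had CPM of 3.22 and 3.68 in WT 1 and 2 and 7.16, 5.72 and 7.54 in A224T, and 0 counts in the other 18 libraries. INE-1{}2164, INE-1{}2161 and INE-1{}2163 were also counted in WT 1 and 2 and in A224T, with at most 0.0980 CPM elsewhere. INE-1{}2164 had 3.90 and 5.25 CPM in WT 1 and 2 and 5.29, 4.51 and 6.94 CPM in A224T, and the groups overlapped. INE-1{}2161 had 3.54 and 2.37 CPM in WT 1 and 2 and 1.19, 1.41 and 1.61 CPM in A224T, lower than in WT 1 and 2, and INE-1{}2163 had 0.728 and 1.31 and 1.73, 1.26 and 1.51 CPM, with overlap. INE-1{}2165 rose in A224T (at least 122-fold higher, edgeR adjusted p = 7.83e-07) and fell in R873W (at least 83.7-fold lower, edgeR adjusted p = 0.00408). The numbers in these symbols are close, but whether the copies lie near each other was not examined because positions were not used here.

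INE-1{}4677 was found in R873W and Y874C. It had 0 counts in WT 1 and 2 and in D234G, 4.90, 4.45 and 4.87 CPM in R873W, 1.10, 0.703 and 0.766 CPM in Y874C and at most 0.158 CPM in set 2. It rose in R873W (at least 60.5-fold higher, edgeR adjusted p = 0.000176) and Y874C (at least 10.8-fold higher, edgeR adjusted p = 0.00205), and both calls held without each library. INE-1{}2713 was found in Y874C, at 4.51, 2.02 and 2.72 CPM against at most 0.206 CPM in every other library (at least 38.7-fold higher, edgeR adjusted p = 0.00167). INE-1{}5384 was found in D234G, at 1.06, 1.42 and 2.21 CPM, and Y874C, at 2.66, 1.62 and 2.72 CPM, against at most 0.151 CPM in all others. It rose in Y874C (ratio to WT 87.5, 95% counting interval 15.5 to 3474, edgeR adjusted p = 0.00313), and in D234G (ratio to WT 73.5, 95% counting interval 12.6 to 2956, edgeR adjusted p = 0.00435), a call lost without WT 1 (highest edgeR adjusted p = 0.0507). In JmjC, INE-1{}3309 stood at 4.66, 3.45 and 5.18 CPM against 0.0565, 0.0527 and 0.118 CPM in WT 3 to 5 (log2 fold 5.77 ± 0.42 SE, edgeR adjusted p = 1.31e-07). The DNA transposon row transib3{}4416 stood at 3.11, 2.46 and 2.26 CPM in JmjC and at most 0.122 CPM elsewhere, with 136 counts in JmjC and 17 in the other libraries. The LTR row 297{}6072 was at 2.60, 1.33 and 2.01 CPM in R873W and had 144 counts there and 1 count in all 20 other libraries together. The transib3 and 297 rows reached 20 counts only through the group where they were high, so their values are a description with no test.

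Counted over all insertion rows described here, 26 insertions in set 1 and 8 in set 2 had 0 counts in every library of a group. These had 10 or more counts in every library of another group of the set. Genes were not counted by this rule, so no share over all rows stands beside these numbers. Of these, 5 were shared by the sets. In most of those of set 1 D234G was among the groups at 0, and 2 of its 3 libraries were the shallowest of the study. The 26 insertions of set 1 include Helena{}1246 and 297{}6072, and the 8 of set 2 include transib3{}4416. These rows entered the insertions described here only through the group where they were high, so they had to differ. How many others of the 26 and 8 are of this kind was not counted, so the numbers are a description with no test.

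**Figure D5:**
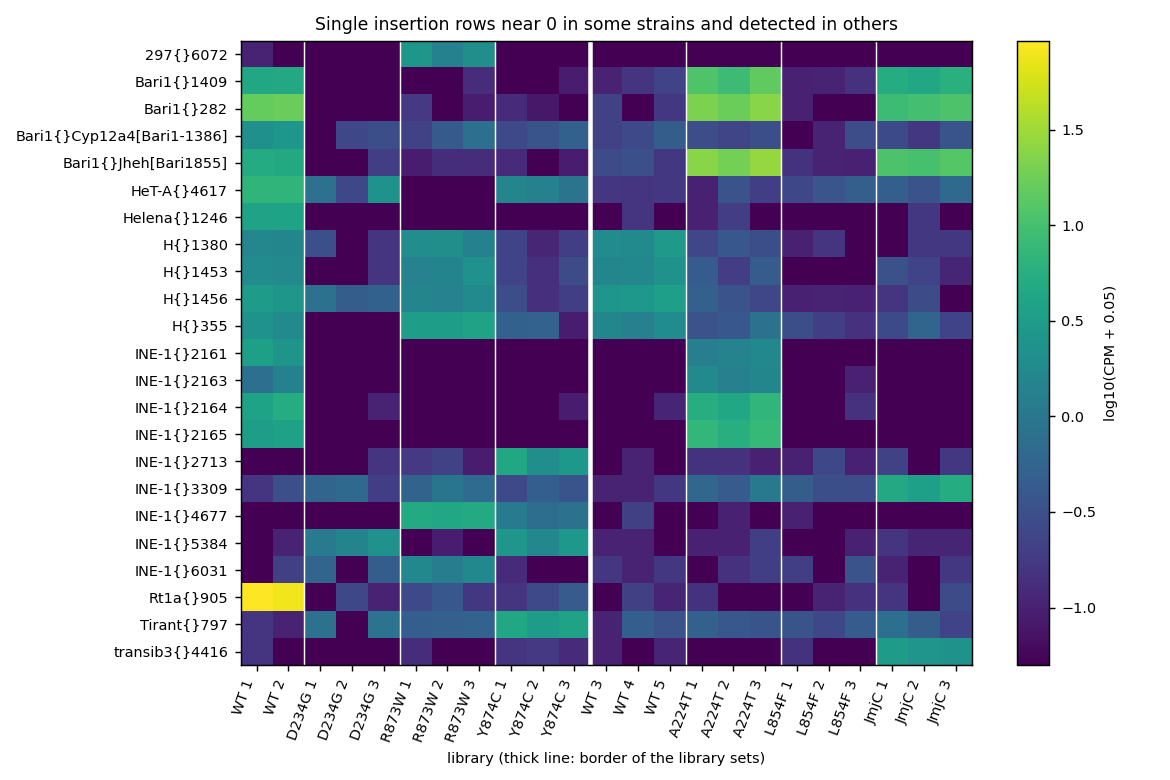
Level in each of the 23 libraries, as log10(CPM + 0.05), of the 23 rows followed by name with a lowest group mean under 0.1 CPM and a highest of 1 CPM or more; thin lines part groups and the thick line parts the library sets. Bari1{}282, Bari1{}1409 and Bari1{}Jheh[Bari1855] are bright in WT 1 and 2, A224T and JmjC, the INE-1 rows 2161, 2163, 2164 and 2165 in WT 1 and 2 and A224T, and Rt1a{}905 in WT 1 and 2 at 92.1 and 77.7 CPM.

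Some symbols name the gene that holds or neighbours the insertion. These 41 rows were singled out after their values had been seen, and the gene could be tested beside the insertion for 39. Doc{}CHKov1[Doc1420] is a LINE-like Doc copy in CHKov1, a gene of the choline kinase-like group at 3R:25323156-25329316 (Release 6). Its CPM were 39.3 and 41.6 in WT 1 and 2, 2.65, 6.91 and 2.94 in D234G, 59.95, 42 and 46.4 in R873W and 53.8, 42 and 43.7 in Y874C. It fell in D234G (log2 fold -3.37 ± 0.29 SE, edgeR adjusted p = 8.33e-05), and the other libraries of set 1 did not overlap with D234G. Counts on the gene went the other way, with 19.2 and 18.7 CPM in WT 1 and 2 and 39.2, 38.8 and 41.5 CPM in D234G (log2 fold 1.07, edgeR adjusted p = 0.000306). In JmjC the gene was at 46.6, 37.2 and 38.8 CPM against 22.7, 25.4 and 25.2 CPM in WT 3 to 5 (log2 fold 0.74, edgeR adjusted p = 7.68e-05), and the insertion at 13.9, 21.7 and 21.3 CPM against 23.8, 25.2 and 25.3 CPM, a fall lost without WT 3 or WT 4 or WT 5 or JmjC 1 (highest edgeR adjusted p = 0.154).

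FB{}Pur-alpha[FB], a foldback element, is named for Pur-alpha, a nucleic acid binding protein gene at 4:558016-567257 (Release 6). Its CPM in set 2 were 20.9, 22.9 and 24.3 in WT 3 to 5, 24.1, 22.1 and 23.9 in A224T, 22.3, 23.8 and 25.3 in L854F and 9.87, 9.31 and 9.17 in JmjC. It fell in JmjC (log2 fold -1.26 ± 0.09 SE, edgeR adjusted p = 1.22e-07), as did the gene, from 275, 292 and 281 to 204, 175 and 175 CPM (log2 fold -0.61, edgeR adjusted p = 4.07e-05). The JmjC libraries did not overlap with any other group of set 2 in either. Both FB rows named for nmo, a kinase gene, also fell in JmjC, FB{}nmo-FB-NOF (log2 fold -1.26 ± 0.26 SE, edgeR adjusted p = 0.00206) and FB{}nmo[FB] (log2 fold -1.44 ± 0.35 SE, edgeR adjusted p = 0.00611), beside a fall of the gene (log2 fold -0.31, edgeR adjusted p = 0.0213). FB{}nmo-FB-NOF was called lower in 4 of the 6 comparisons, 2 of them in set 1. In D234G it was at 0.265, 1.22 and 1.34 CPM against 4.99 and 6.04 CPM in WT 1 and 2. The gene did not fall there, at 114, 111.5 and 115 CPM against 103 and 103 CPM. Of the 39 rows, insertion and gene were called in the same direction in 4 in JmjC, 1 in R873W and 1 in Y874C. In D234G, A224T and L854F this held for 0 rows. The insertion was called in 4 to 9 of 39 rows per strain and the gene in 2 to 13.

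Some rows were called in the same direction in strains of both sets, which share no library. In at least 3 of the 6 comparisons, and in both sets, 73 rows rose and 43 fell. Genes were not counted by this rule, so no share over all rows stands beside these numbers. Of the risers 20 were 412 rows, 8 mdg3 and 7 HeT-A, and of the fallers 16 were H rows, 7 3S18 and 4 copia. HeT-A{}6268 and Max{}RR48810 rose in all 6 strains and 3S18{}853 fell in all 6, rows picked out after their values had been seen. Within a set the strains share their WT libraries, so calls shared within a set are no independent repeat.

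Strains of a set were also compared with each other. R873W against D234G had 385 rows higher and 85 lower (of all rows 27.4% were called, 9.12% higher and 18.2% lower), among them 30 copia rows higher, and Y874C against D234G 168 higher and 136 lower (of all rows 25.1%, 7.92% higher and 17.2% lower). Y874C against R873W had 49 higher and 248 lower (of all rows 13.6%, 8.99% higher and 4.62% lower), with 30 copia, 18 H and 12 mdg3 rows lower and 18 Tirant rows higher. In set 2 JmjC against A224T had 97 rows higher and 68 lower (of all rows 9.42%, 6.15% higher and 3.27% lower) and L854F against A224T 94 and 89 (of all rows 7.3%, 2.53% higher and 4.78% lower). JmjC against L854F had 236 higher and 172 lower (of all rows 26.5%, 18.4% higher and 8.08% lower), with 18 flea rows higher and 13 rows of 412 lower.

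Genes of the silencing pathways were counted beside the insertions. Of 40 tested genes of the piRNA pathway and heterochromatin silencing, 16 rose and 2 fell in JmjC, where 21% of all rows were called higher and 5.81% lower, and 12 rose and 5 fell in A224T, against 14.7 and 4.95% of all rows. In each of the other strains 2 rose, with 2 lower in D234G, Y874C and L854F and 5 lower in R873W. Of all rows 11.4, 3.07, 7.26 and 6.8% were called higher there, in that order of strains. Called lower were 6.18, 3.07, 4.05 and 13.4% of all rows in the same order, so the 5 falls in R873W were near the share of all rows. piwi and aub encode Argonaute proteins that bind piRNAs. piwi rose in JmjC (log2 fold 1.96 ± 0.25 SE, edgeR adjusted p = 3.8e-05) and A224T (log2 fold 1.53 ± 0.26 SE, edgeR adjusted p = 0.000581), and so did aub (2.28 ± 0.32 and 1.85 ± 0.32). krimp, a Tudor protein of the pathway, fell in R873W (log2 fold -3.18 ± 0.85 SE, edgeR adjusted p = 0.0241). The summed level of the 41 genes found was 1223 to 1265 CPM in JmjC, 1079 to 1175 CPM in A224T and 971 to 1094 CPM in WT 3 to 5. A list of 10 genes drawn up for siRNA silencing also held AGO1 and Dcr-1, which act mainly with microRNAs. Of these 10, AGO2, Dcr-2, Dcr-1 and r2d2 rose and vig fell in JmjC. The log2 folds were 0.60 for AGO2, the siRNA-binding Argonaute, and 0.72 for Dcr-2, which cuts double-stranded RNA. With TMM factors the log2 folds of all rows are lower by about 0.16 in JmjC and 0.11 in A224T, which leaves the direction of the values given here. Of 20 ovary and germ line markers tested, 5 rose in A224T and 2 in JmjC, against 14.7 and 21% of all rows called higher there. Their summed level was 82.7 to 83.3 CPM in A224T, 67.0 to 74.2 CPM in JmjC and 63.9 to 75.5 CPM in WT 3 to 5, and osk was at most 0.194 CPM in these groups. vas, listed both as a germ line marker and as a piRNA gene, was higher than WT in both strains, without overlap. It was at 0.603 to 0.824 CPM in A224T, 0.936 to 1.61 CPM in JmjC and 0.226 to 0.353 CPM in WT 3 to 5. The part of germ line RNA and of the silencing genes in the insertion values was not tested.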

How the data were processed

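RNA of fly heads was measured in 23 libraries. The counts per gene and per insertion were deposited by the authors as whole, unnormalised numbers in 1 table with 23882 rows; the submitters' processing notes name the dm6 build and the tools STAR, fastp, DESeq2 and featureCounts, with no versions. The sources used here give neither the strand option, nor the handling of reads with several matches, nor the annotation release. Every column was mapped to a sample by its title, and columns of no sample numbered 0.

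Insertion rows were those whose identifier does not start with FBgn, with 20 or more counts over all libraries. Library sizes were the summed gene counts, and CPM are counts per 1000000 gene counts, not per length. In each library set a quasi-likelihood model with 1 mean per group was fitted over all rows with 20 or more counts (17082 in set 1 and 17045 in set 2, genes included), without scaling factors. A call needed a two-sided p under 0.05 after Benjamini-Hochberg adjustment over these rows, and the errors of log2 folds are standard errors of that fit. The fit was tested on simulated data. Family sums, Spearman correlations and groups compared side by side are descriptions with no test. A fold against a group with 0 counts was bounded with 3 counts over the group, and with 1 to 3 counts the ratio has a 95% counting interval, which covers counting error only. Shares of counts were tested by exact permutation of the libraries. R 4.3.3, edgeR 4.0.16, limma 3.58.1, DESeq2 1.42.0, Python 3.11.15, numpy 2.4.6, pandas 2.3.3, scipy 1.17.1 and matplotlib 3.10.9 were used.

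Gene counts per library ran from 3774003 to 32730301.

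Members, families, gene lists and library sets were chosen with earlier results of these data known. Rows followed by name were the 10 with the highest mean; per strain the 4 largest rises and falls among called rows that averaged at least 0.5 CPM and whose libraries did not overlap those of WT; up to 6 rows called in the same direction in 3 or more comparisons and both sets; up to 6 rows per set with 0 counts in a group and 10 or more in every library of another; and the 3 rows most like the one with the highest mean. Rows named for a gene were added after their values had been seen. Symbols and gene positions came from a table of gene names and a RefSeq gene table of Release 6, and all 2608 rows had a symbol.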

Additional observations from a re-analysis of the deposited data

Results flagged for a closer look

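Among the 5 WT libraries, 110 values were examined for a library far from the others by Dixon's ratio, and 5 exceeded the critical value of 0.71. Chance flags about 1 in 20 where the libraries are alike. WT 1 and 2 and WT 3 to 5 come from sets that differ, so this rate does not apply here. The summed level of the H rows was 109.7 CPM in WT 5, and the nearest WT library was at 76.4 CPM. H{}1380 stood at 2.827 CPM in WT 5, and the nearest WT library was at 1.808 CPM. INE-1{}4677 had 0.158 CPM in WT 4 (3 counts) and 0 in the other WT libraries. INE-1{}2713 had 0.05267 CPM in WT 4 (1 count) and 0 in the other WT libraries. 297{}6072 had 0.05198 CPM in WT 1 (1 count) and 0 in the other WT libraries. Where only 1 library is above 0 the ratio is 1 at any level, so these flags carry no weight.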

How the results depend on the processing

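Scaling, filtering and the tool moved the counts of called insertion rows by less than 1.5 times, while the control libraries moved them most. With all 5 WT libraries as control, 462 rows were called in D234G, 657 in R873W and 402 in Y874C. With 1 model over the 23 libraries the counts were 349, 544 and 327. With only the strain and WT in the fit 79 rows were called in D234G, and with 1 D234G library kept 74 (without 1 and 3) or 167 (without 1 and 2) were. Leaving out each library in turn gave 68 to 228 in D234G, 144 to 264 in R873W, 79 to 173 in Y874C, 278 to 397 in A224T, 242 to 283 in L854F and 333 to 381 in JmjC. For the share of counts in set 2 the exact permutation p ran from 0.04234 to 0.4163. In set 1 the replicate numbers did not pair the libraries, since none of 15 same-numbered pairs had deviations correlated over 0.1. In set 2, 4 of 12 such pairs did. WT 3 was matched there with replicate 3 of each strain, and WT 4 and 5 had no partner, so pairing in set 2 was not settled. With the number as a replicate block 120 rows were called in D234G and 117 in Y874C.

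Of the 216 calls of single rows followed by name, 138 were kept under every setting besides the control of all 5 WT libraries. In D234G without libraries 1 and 3, Tirant{}797 had a log2 fold of -3.92. All 30 other reversals came with all 5 WT libraries, where WT of the other set enters the control. In D234G they were Stalker2{}1255 at -0.56, Stalker2{}1001 at -1.04 and Stalker2{}1505 at -0.72. In R873W they were copia{}1466 at -0.27, copia{}RR48347 at -0.14, copia{}RR48399 at -0.39, copia{}997 at -0.81, copia{}837 at -0.57, copia{}122 at -0.47, copia{}1684 at -0.96, copia{}324 at -0.21, Stalker2{}1255 at -0.62, Stalker2{}1001 at -0.88, Stalker2{}1505 at -1.03 and micropia{}RR48374 at -1.40. In Y874C they were Stalker2{}1255 at -1.34, Stalker2{}1001 at -1.41, micropia{}RR48374 at -1.39 and copia{}1016 at -1.26. In A224T they were copia{}1466 at 0.12, copia{}1684 at 0.17 and 412{}880 at -0.29. In L854F they were copia{}RR48347 at 0.0725, copia{}RR48399 at 0.08726, copia{}324 at 0.0146 and roo{}alpha4GT2[1] at -0.05037. In JmjC they were copia{}1466 at 0.01414, copia{}1684 at 0.17, roo{}alpha4GT2[1] at -0.16 and HeT-A{}4617 at -2.63. The cause of these changes was not tested. Depth limits D234G most, whose libraries 1 and 2 had 3774003 and 4921958 gene counts.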
